A study of Homo sapiens with 15 samples.

Results

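The HOX gene clusters are 4 tight rows of homeobox genes on separate chromosomes, and their accessible chromatin was described here in the human cell line HPAF-II, which comes from a pancreatic adenocarcinoma. Peaks of all 15 deposited lists were merged into regions wherever they overlapped by at least 1 bp. Members were the regions inside, or within 50 kb of either end of, a protein-coding gene whose symbol is HOX, a letter from A to D and a number. This gave 159 of 222814 regions around 39 genes. The HOXA cluster on chromosome 7 held 47 regions around 11 genes, HOXB on chromosome 17 held 38 around 10, HOXC on chromosome 12 held 39 around 9, and HOXD on chromosome 2 held 35 around 9.

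The assay was ATAC-seq. Its transposase cuts and tags DNA where chromatin is open. The cells received 1 µM Lgk974, an inhibitor of the enzyme porcupine that WNT proteins need for secretion, or the solvent DMSO. There were 4 DMSO and 4 Lgk974 libraries after 24 h, and 4 DMSO and 3 Lgk974 libraries after 48 h. All 15 are labelled HPAF-II, although the growth protocol describes KATO III cells as well. The labels name no genetic change in any group. They do not state whether replicates were grown apart, and the p-values then reflect only how far these samples spread, which may be technical.

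HOX genes encode transcription factors that bind DNA through a homeodomain and give cells their position along the head-to-tail axis of the embryo. Within a cluster, the order of the genes follows the order in which they act along that axis, from anterior (low numbers) to posterior (high numbers), and genes of the same number in different clusters are paralogues. Polycomb complexes hold the clusters silent, while retinoic acid, WNT signals acting through CDX factors, and trithorax-type methyltransferases open them. Adult endoderm, the layer that forms pancreas and gut, keeps part of this positional code.

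Promoter sequence is shown first, for starts that were called and starts that were not. RefSeq promoter windows on GRCh38.p14, the assembly of hg38, were matched by symbol for 20 of the 39 genes and gave 26 distinct windows, some genes having several. The 250 bases before the start are printed for 3 windows called in 13 to 15 libraries and for 3 called in 0. Capitals mark CCAAT on either strand and, where it follows ATTGG on the gene's strand within 20 bases, CANGTG. The first 3 were called in 15 libraries (HOXA10, chr7:27179862-27180111, minus strand), 14 libraries (HOXA13, chr7:27200092-27200341, minus strand) and 13 libraries (the start shared by HOXC4 and HOXC5, chr12:54016638-54016887, plus strand).
HOXA10: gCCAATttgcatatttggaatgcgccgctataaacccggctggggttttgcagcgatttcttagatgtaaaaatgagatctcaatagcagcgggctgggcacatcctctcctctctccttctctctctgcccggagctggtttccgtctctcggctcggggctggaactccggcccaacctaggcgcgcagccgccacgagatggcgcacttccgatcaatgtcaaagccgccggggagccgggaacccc
HOXA13: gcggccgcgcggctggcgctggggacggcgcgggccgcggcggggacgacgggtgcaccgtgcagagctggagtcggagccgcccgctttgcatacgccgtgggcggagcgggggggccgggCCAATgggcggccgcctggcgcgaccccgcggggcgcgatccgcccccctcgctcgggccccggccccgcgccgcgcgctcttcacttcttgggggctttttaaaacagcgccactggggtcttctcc
HOXC4 and HOXC5: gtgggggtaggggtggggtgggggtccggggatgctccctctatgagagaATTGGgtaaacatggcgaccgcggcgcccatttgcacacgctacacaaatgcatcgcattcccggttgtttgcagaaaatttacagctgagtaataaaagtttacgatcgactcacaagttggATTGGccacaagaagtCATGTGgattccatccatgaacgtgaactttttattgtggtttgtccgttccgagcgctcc
The other 3, called in 0 libraries each, were those of HOXD12 (chr2:176099545-176099794, plus strand), HOXD10 (chr2:176116528-176116777, plus strand) and HOXA7 (chr7:27156676-27156925, minus strand).
HOXD12: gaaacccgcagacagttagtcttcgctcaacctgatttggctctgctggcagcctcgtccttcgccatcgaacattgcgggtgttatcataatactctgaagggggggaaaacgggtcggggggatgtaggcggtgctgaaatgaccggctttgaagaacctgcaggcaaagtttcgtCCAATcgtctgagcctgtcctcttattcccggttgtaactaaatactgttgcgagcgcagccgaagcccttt
HOXD10: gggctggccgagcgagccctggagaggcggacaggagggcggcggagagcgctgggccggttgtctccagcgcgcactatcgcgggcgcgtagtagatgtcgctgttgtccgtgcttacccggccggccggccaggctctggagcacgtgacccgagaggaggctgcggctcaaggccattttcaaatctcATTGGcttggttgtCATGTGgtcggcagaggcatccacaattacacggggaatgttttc
HOXA7: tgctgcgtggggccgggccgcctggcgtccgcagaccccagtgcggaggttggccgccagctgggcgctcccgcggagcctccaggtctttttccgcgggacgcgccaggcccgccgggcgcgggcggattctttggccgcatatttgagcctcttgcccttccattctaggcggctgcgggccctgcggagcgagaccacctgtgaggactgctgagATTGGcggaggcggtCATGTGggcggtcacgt

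ATTGG followed within 20 bases by CANGTG was a recurring feature of these promoters. The pair was present in 8 of the 26 HOX windows, at HOXA2, HOXA3, HOXA4, HOXA7, HOXB1, HOXC4 with HOXC5, HOXD1 and HOXD10, against 0.547% of all 34943 windows in the RefSeq table. It was searched for after the sequences had been read, on the gene's strand only, and CCAAT overlaps it by construction. CCAAT on either strand was found in 17 of 26 HOX windows and in 32.0% of all windows. By calling, the pair stood in 1 of the 5 windows called in 13 to 15 libraries, in 1 of the 4 called in 3 to 12, and in 6 of the 17 called in 0 to 2. HOX windows held a median of 19.5 CG dinucleotides, against 11 over all windows. That median was 19 in the windows called in 13 to 15 libraries and 20 in those called in 0 to 2.

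Letters that factors of the WNT and HOX systems are known to bind were counted in the same windows, with no test. CTTTGA, the core that TCF and LEF factors read downstream of WNT, was in 3 of 26 HOX windows and 11.2% of all windows. TTTATNG, a CDX motif, was in 6 of 26 and 8.95%. TGATNNAT, a composite for PBX with HOX, was in 3 of 26 and 6.49%, and TATAAA was in 5 of 26 and 10.8%. Each motif was searched on both strands. A TATAAA match can overlap a TTTATNG match on the opposite strand, as it does in the printed HOXA10 window. A match is a description of letters only.

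The clusters also hold microRNA genes, whose products silence other transcripts by pairing through a seed, bases 2 to 8. Mature sequences are shown for MIR196B, whose hairpin lay in a region called in all 15 libraries. Its HOXB and HOXC relatives give miR-196a-5p, with the same seed. MIR10A of HOXB and MIR615 of HOXC, which have other seeds, are shown as well. Capitals mark the seed.
miR-196b-5p: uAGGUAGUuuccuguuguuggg
miR-196a-5p: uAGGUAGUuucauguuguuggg
miR-10a-5p: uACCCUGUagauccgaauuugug
miR-615-3p: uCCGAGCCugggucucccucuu
MIR196B (chr7:27169480-27169563), between HOXA9 and HOXA10, had a peak over its hairpin in 13 of 15 libraries, and the region around it, chr7:27169059-27170189, was called in 15. MIR196A1 between HOXB9 and HOXB13 (chr17:48632490-48632559) and MIR196A2 in HOXC (chr12:53991738-53991847), which give miR-196a-5p with the same seed, had a peak in 0 libraries each. MIR615 (chr12:54033950-54034045), inside HOXC5, lay at the edge of a region called in 15 libraries, with a peak over the hairpin itself in 1. MIR10A in HOXB and MIR10B in HOXD had a peak in 0 libraries. MIR3185 at HOXB13 had one in 5 and MIR7704 at HOXD1 in 2. Of the 3 genes with the miR-196 seed, the HOXA copy was thus the 1 with called hairpin chromatin.

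The 15 lists held from 53610 to 127886 peaks, and read depth is unknown because read counts were not used here. Calling is a yes or no: the region overlaps a peak of that library's list, or it does not. DMSO 24 h replicate 3 shared least with the other libraries (mean Jaccard index of called regions 0.376), and the shortest lists were those of replicate 3 of Lgk974 at 24 h and at 48 h. These 3 libraries are called the libraries that stood apart. The highest Jaccard index of any pair was 0.782, so no pair of lists was identical. The labelled epithelial type was checked at gene starts, by RefSeq windows for KRT8 and MUC1 and within 1 kb of either gene end for the others: KRT19, KRT8, KRT18, KRT7, EPCAM, CDH1, MUC1 and SOX9 were called in all 15 libraries. Of 6 fibroblast genes COL1A1 was called in 15 and COL1A2 in 11, while COL3A1, DCN and LUM were called in 0. PDGFRB was called in 0 by its RefSeq window, but in 10 within 1 kb of either gene end. Of 5 immune genes CD3E, CD14 and SPI1 were called in 15 and PTPRC in 0, and of 4 endothelial genes only CDH5 was called, in 1 library. CD14, PTPRC and TEK were read by RefSeq windows, and within 1 kb of either gene end PTPRC was called in 2.

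HOXA, HOXB and HOXC had a stable set of open regions, and HOXD had nearly none. Called in all 15 libraries were 12 of 47 HOXA regions (25.5%), 8 of 38 HOXB regions (21.1%), 10 of 39 HOXC regions (25.6%) and 1 of 35 HOXD regions (2.86%). Over the genome, 35389 of 222814 regions (15.9%) were called in all 15. At the other end, 23 of the 35 HOXD regions (65.7%) were called in 1 library only, against 14 in HOXA (29.8%), 9 in HOXB (23.7%), 7 in HOXC (17.9%) and 39.5% over the genome. These shares are a description without a test, since regions of a cluster share their libraries.

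**Figure D1:**
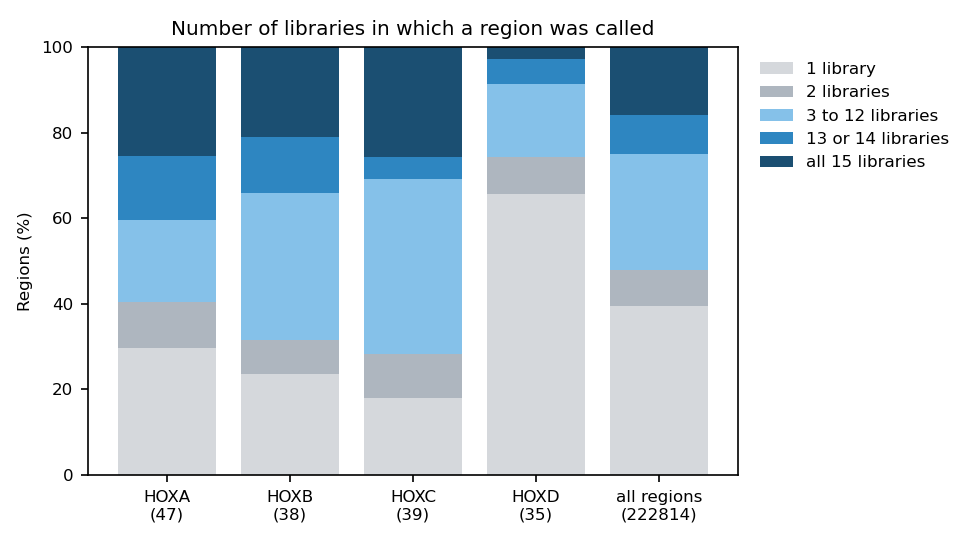
Bars split the regions of each HOX cluster, and all regions of the genome, by the number of libraries in which they were called (percent of regions, numbers of regions in brackets). HOXD has the smallest share called in all 15 libraries (2.86%) and the largest called in 1 (65.7%).

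Per length of gene-bearing sequence, regions called in all 15 libraries stood at 8.40 per 100 kb in HOXA (107.1 kb from the first to the last gene), 2.997 in HOXB (200.2 kb), 8.53 in HOXC (117.2 kb) and 0.967 in HOXD (103.4 kb). In the 50 kb flanks HOXA had 3 such regions, HOXB 2, HOXC 0 and HOXD 0. The order of the clusters kept HOXD last without the 3 libraries that stood apart. Called in all 12 libraries left were 19 of 38 HOXA (50.0%), 13 of 34 HOXB (38.2%), 11 of 37 HOXC (29.7%) and 3 of 27 HOXD regions (11.1%). Over the genome 31.75% of regions were, so the HOXC share was then below that of the genome, which it exceeded with all 15 libraries. Leaving out these libraries was chosen after the data were seen.

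A single library held much of the rarely called sequence, in the HOX clusters as over the genome. Of the 53 HOX regions called in 1 library, DMSO 24 h replicate 3 alone held 23 (43.4%), with 9 in HOXA, 4 in HOXB, 2 in HOXC and 8 in HOXD. Of the 87949 such regions of the genome it held 50.7%, so its HOX share was not above the background. Lgk974 48 h replicate 2 held 9 (17.0%, and 11.55% over the genome). Lgk974 24 h replicate 4 held 7 (13.2%, and 3.945% over the genome), of which 6 were in HOXD. Without DMSO 24 h replicate 3, 136 HOX regions remained, 27 of them in HOXD.

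**Figure D2:**
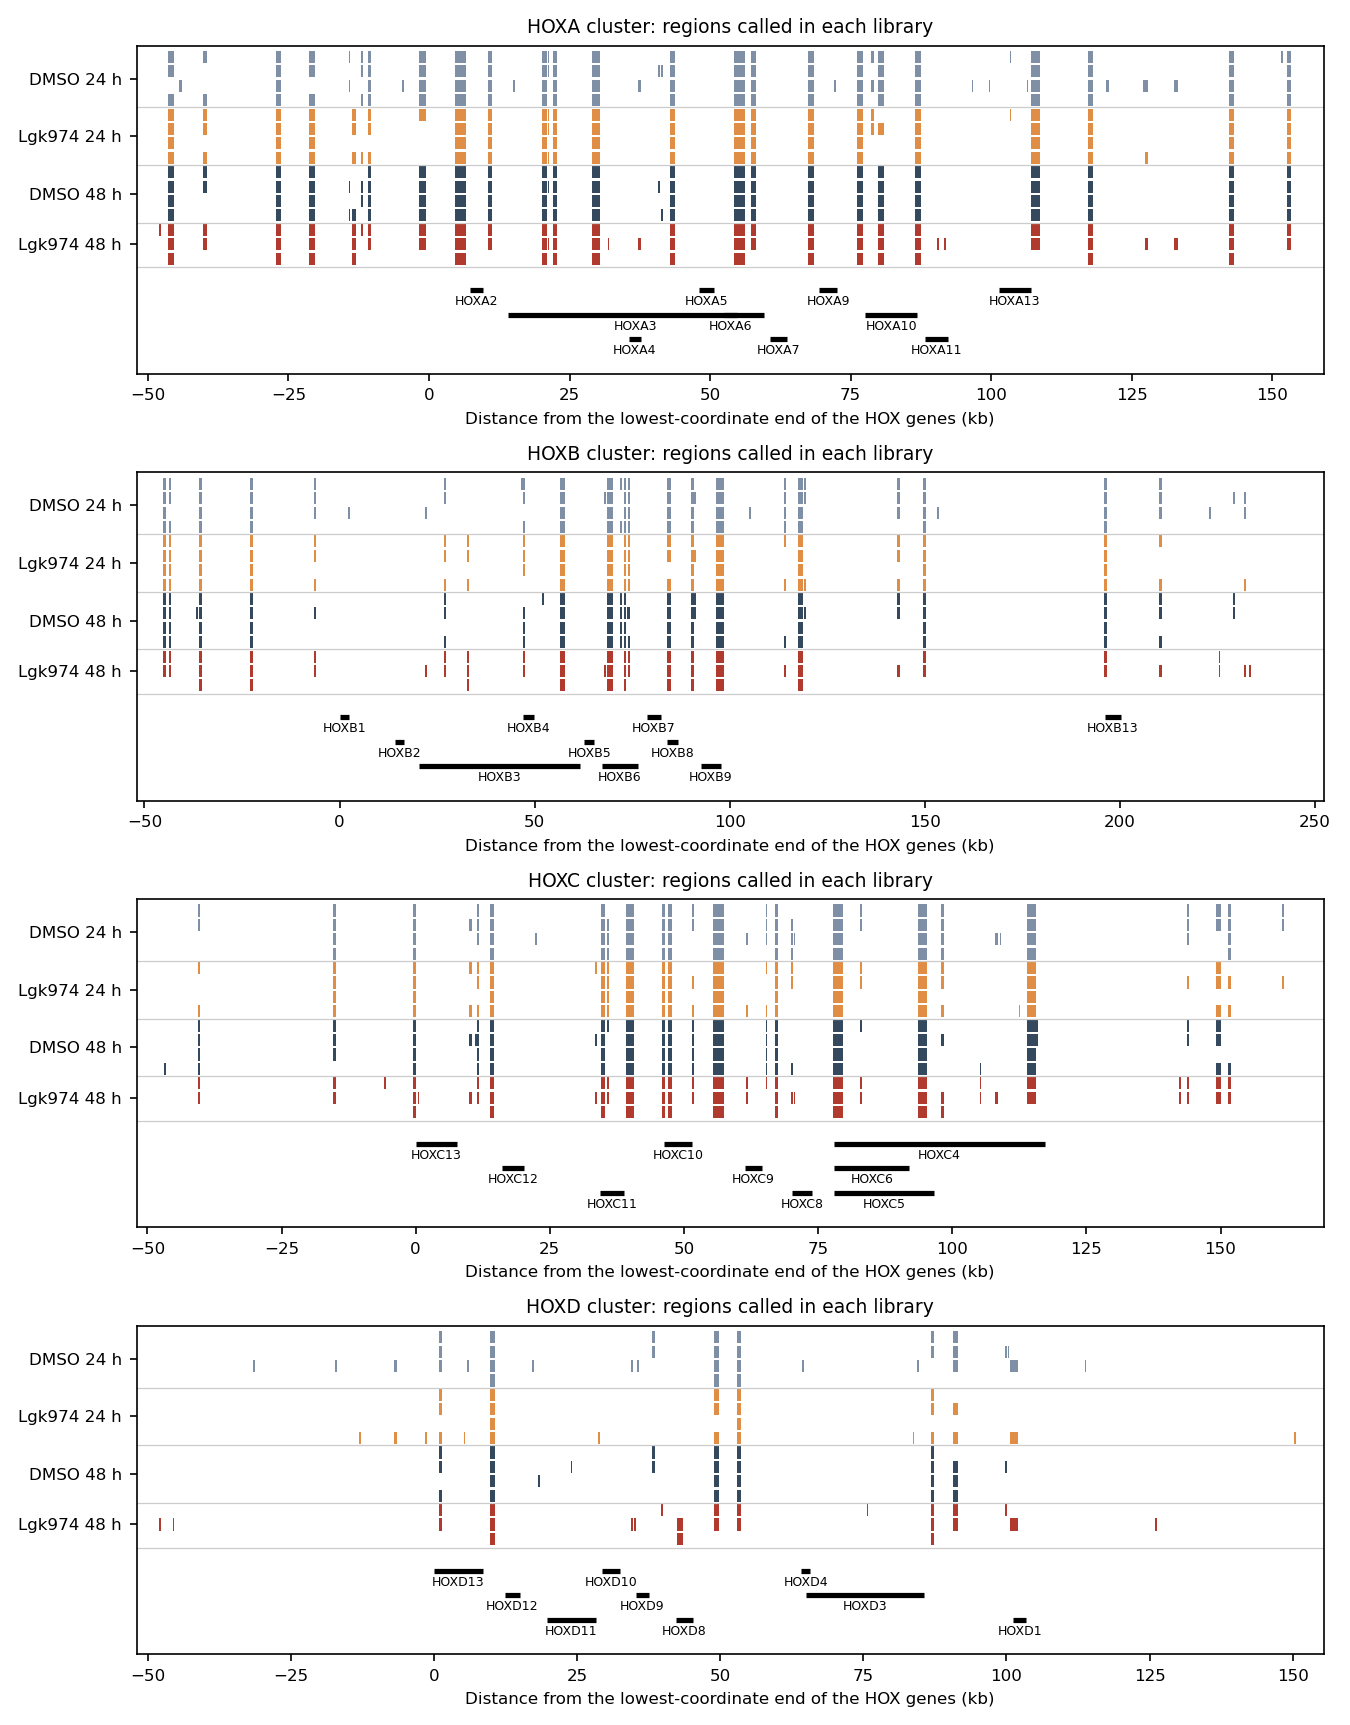
Each coloured block is a region called in a library, with 1 row per library in the order of replicates within DMSO 24 h, Lgk974 24 h, DMSO 48 h and Lgk974 48 h, and black bars are HOX genes. The horizontal axis is distance in kb from the lowest-coordinate end of the HOX genes. Unbroken columns are the regions called in all 15 libraries (12 in HOXA, 8 in HOXB, 10 in HOXC, 1 in HOXD), and blocks of a single row make up most of HOXD.

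The regions called in every library lay both at gene starts and away from them. A region was placed at a start if it came within 1 kb of the 5′ end of a HOX gene, taking the strand of a cluster from those of its genes that have a promoter window. Of the 31 HOX regions called in all 15 libraries, 8 were at a start, 8 elsewhere inside a gene, 10 between genes and 5 in a flank. HOXC had 5 at starts and HOXA 2, HOXB 1 and HOXD 0. Their median width was 969 bp, against 903 bp for regions of the same frequency over the genome and 437 bp for all HOX regions. Within a library, peaks can be ranked by the deposited −log10 q, and a percentile of 100 is the strongest peak of that list. The median percentile of the 31 regions was 65.8 (33.9 to 93.1), and that of all 35389 regions called in 15 libraries was 79.6.

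In HOXA the widest region called in all libraries, chr7:27097553-27099558 (2006 bp), lay 796 bp from HOXA2 over HOTAIRM1, a noncoding RNA gene of the cluster. Its peaks ranked at a median percentile of 56.6, with a range over libraries from 4.93 to 71.9. With DMSO they ranked from 56.6 to 71.9 and with Lgk974 from 4.93 to 50.6, so the groups did not overlap at either time. The lowest rank at each time was that of Lgk974 replicate 3, a library with a short list. This was seen after the fact and not tested, and the share of regions over the genome with such ranks was not counted. The next, chr7:27147269-27149137 (1869 bp), covered the start of HOXA6 and part of HOXA3 and HOXA-AS3, at a median percentile of 52.4. By rank the leading HOXA region was chr7:27135812-27136820, inside the long HOXA3 gene and between HOXA4 and HOXA5, with a median percentile of 88.2. That region is singled out here by its rank, after the values were seen.

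In HOXB the widest were chr17:48624894-48627005 (2112 bp) at the start of HOXB9, with a median percentile of 67.8, and chr17:48597048-48598494 (1447 bp) inside HOXB6 and the antisense gene HOXB-AS3, with 61.2. The remaining HOXB regions of this frequency included none at the start of HOXB1 to HOXB8. HOXB9 is the most posterior gene of the compact part of its cluster, and HOXB13 lies apart from it.

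In HOXC the widest were chr12:53994168-53996289 (2122 bp) over HOXC-AS2, 3872 bp from HOXC9, with a median percentile of 83.3, and chr12:54016634-54018516 (1883 bp) at the common start of HOXC4, HOXC5 and HOXC6, with 76.6. The region that holds MIR615, chr12:54032472-54034064, ranked highest among the 31, with a median percentile of 93.1, and was singled out after its value was seen. HOTAIR, a noncoding RNA gene that runs opposite to HOXC11, shared a region with the HOXC11 start, chr12:53973297-53974060, which ranked lowest of the 31 at 33.9.

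In HOXD the region called in all 15 libraries was chr2:176097207-176098175 (969 bp), between HOXD13 and HOXD12 and 1263 bp from HOXD13. Its peaks ranked at a median percentile of 62.6, with a range from 44.9 to 80.7. A pair of regions beyond HOXD8 came next. One, 7751 bp away at chr2:176140446-176141085, was called in 14 libraries, all except Lgk974 48 h replicate 3. The other, over HOXD-AS2 at chr2:176136382-176137202, was called in 13.

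Calling at the gene starts themselves divided the clusters further. A peak lay within 1 kb of the start in all 15 libraries for 9 of 39 HOX genes. On the same measure, over the 15811 protein-coding genes whose strand the RefSeq promoter table gives, 54.2% of starts were called in all 15 libraries and 22% in 0. Of the 20 HOX genes in that table, 4 were called in all 15 and 4 in 0. The 9 of 39 HOX genes with a start called in all 15 libraries were HOXA6, HOXA10, HOXB9, HOXC4, HOXC5, HOXC6, HOXC10, HOXC11 and HOXC13. HOXC4 to HOXC6 share 1 start. The start of HOXA13 was called in 14 libraries, missing in Lgk974 48 h replicate 3. In between were HOXD13 with 11 libraries, HOXA2 with 10, HOXC8 with 7, and HOXC9 and HOXD1 with 4 each. The starts of 9 genes were called in 1 or 2 libraries and those of 15 genes in 0. By cluster, starts were called in all 15 libraries for 2 of 11 HOXA, 1 of 10 HOXB, 6 of 9 HOXC and 0 of 9 HOXD genes.

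**Figure D3:**
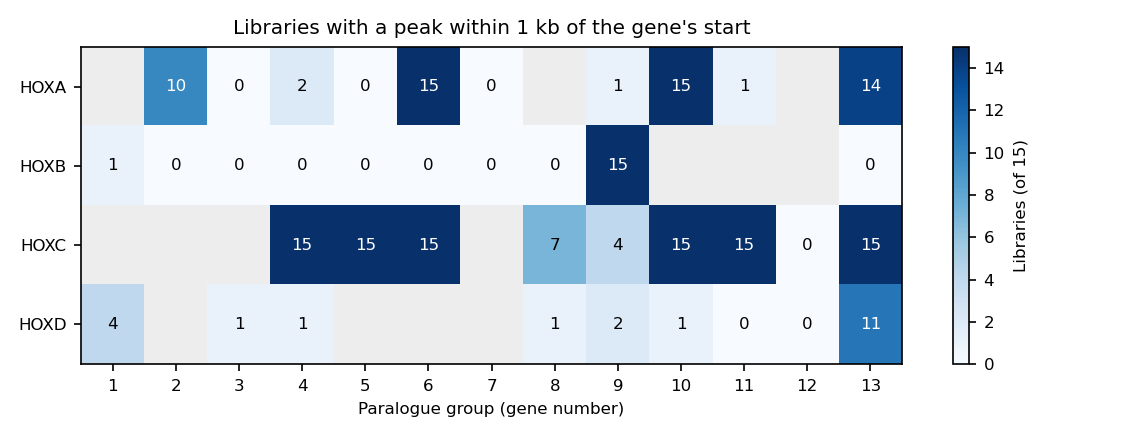
Each cell gives the number of libraries (of 15) with a peak within 1 kb of a gene's start, with clusters in rows and paralogue groups in columns, and grey cells are not shown or have no gene in that cluster. HOXC has 6 genes at 15, HOXD has none, and HOXB has HOXB9 alone.

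Starts were called in every paralogue class, described here with no test. Of the anterior genes, groups 1 to 3, 0 of 8 had a start called in all 15 libraries and 4 had one called in any, such as HOXA2 in 10 and HOXD1 in 4. Of the central genes (groups 4 to 8) 4 of 15 were called in all and 8 in any, where the start shared by HOXC4 to HOXC6 counts as 3 genes. Of the posterior genes (groups 9 to 13) 5 of 16 were called in all and 12 in any. Paralogues of the same number differed between clusters. In group 9 the start was called in 15 libraries at HOXB9, 4 at HOXC9, 2 at HOXD9 and 1 at HOXA9. In group 10 it was called in 15 at HOXA10 and HOXC10 and 1 at HOXD10, and in group 13 in 15 at HOXC13, 14 at HOXA13, 11 at HOXD13 and 0 at HOXB13. Group 4 had 15 at HOXC4, 2 at HOXA4, 1 at HOXD4 and 0 at HOXB4. A start with no call may be open below the calling threshold, or lie elsewhere in transcripts that begin inside the gene. HOXA3, for example, has RefSeq windows inside its long gene body, 1 of which was called in 15 libraries, while its outermost start was called in 0.

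The effect of Lgk974 was asked of every region called in 3 to 12 libraries. The statistic was the share of Lgk974 libraries with a call minus that of DMSO libraries, averaged over both times. It was tested by a two-sided exact permutation test within time (2450 assignments, smallest p 0.000408), with Benjamini-Hochberg adjustment over all 60356 such regions of the genome. Of the 44 HOX regions tested, 0 passed an adjusted p of 0.05, as did 0 of 60356 over the genome (0%, smallest adjusted p = 0.418). At the smallest possible p, a region could pass only if many others of the genome had a p as small. The 0 thus cannot tell whether a single HOX region changed. At an unadjusted p under 0.05, 2 HOX regions were called more often with Lgk974, where 2.96% of tested regions over the genome were, and 2 less often, where 3.08% were (6.03% in either direction). At 24 h, 0 HOX regions separated the treatments, where over the genome 0.0375% had calls in all Lgk974 libraries with none in DMSO and 0.103% the reverse. The median difference in calling share was -0.0417 over the 44 HOX regions and -0.0417 over all tested regions. It was above 0 in 19 HOX regions, below 0 in 24 and 0 in 1. The 44 regions were 9 in HOXA, 13 in HOXB, 16 in HOXC and 6 in HOXD. The other 115 members, called in 1, 2 or over 12 libraries, were left out of the test by this filter and are described only.

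HOXB held the largest difference in each direction. A region inside HOXB3, chr17:48561122-48561627 (506 bp), which also overlaps the antisense gene HOXB-AS2, had no call in the 4 DMSO libraries of 24 h or the 4 of 48 h. With Lgk974 it was called in 3 of 4 libraries at 24 h and in 3 of 3 at 48 h. In the Lgk974 libraries of 24 h its peak stood at percentiles 13.4, 38.1 and 59.9 of its own list in replicates 1, 2 and 4. At 48 h it stood at 51.0, 68.75 and 7.74 in replicates 1, 2 and 3. The groups did not overlap at 48 h, where 0.251% of regions with any call at that time separated the treatments in this direction. The difference in share was 0.875 (exact permutation p = 0.00204, adjusted p = 0.418, exact p = 0.143 at 24 h and 0.0286 at 48 h, the smallest that 48 h allows). The Lgk974 24 h library without a call was replicate 3, which has the shortest list. The peaks of Lgk974 24 h replicates 1 and 2 ranked too low in their lists of 95210 and 98930 peaks to stay among the 53583 of highest −log10 q. That of replicate 4 ranked high enough. HOXB3 is an anterior gene that acts in hindbrain and neck patterning.

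A region inside HOXB6 and HOXB-AS3, chr17:48600376-48600865 (490 bp), went the opposite way. With DMSO it was called in 2 of 4 libraries at 24 h and in 4 of 4 at 48 h, and with Lgk974 in 0 of 4 and 0 of 3. The DMSO percentiles were 16.1 and 12.2 in replicates 1 and 4 at 24 h. They were 44.4, 19.98, 38.6 and 25.4 in replicates 1 to 4 at 48 h. These were weak peaks, and with equal numbers of peaks per list (the 53583 of highest −log10 q in each library) the region was called in 2 DMSO libraries and 0 Lgk974 libraries, too few to test. The difference in share was -0.750 (exact permutation p = 0.00612, adjusted p = 0.543, exact p = 0.429 at 24 h and 0.0286 at 48 h). At 48 h, 0.412% of regions with any call separated the treatments in this direction. With replicate numbers as a block the exact permutation p was 0.0625, above 0.05, and that of the HOXB3 region 0.03125, where the smallest possible is 0.0156. The next region along HOXB6, chr17:48601402-48602057, was called in all 15 libraries.

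**Figure D4:**
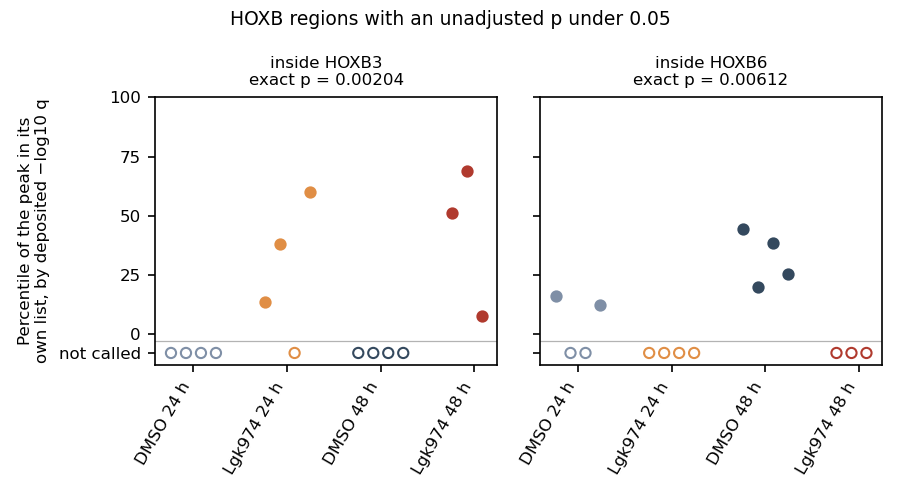
Points give the percentile of each library's peak in its own list, ranked by the deposited −log10 q, for the HOXB3 and HOXB6 regions by group, and open circles are libraries without a call. Panels give the gene and the unadjusted exact permutation p. At 48 h the HOXB3 region is called with Lgk974 in 3 of 3 libraries and with DMSO in 0 of 4, and the HOXB6 region in 0 of 3 and 4 of 4.

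The tested regions described next did not reach an unadjusted p of 0.05. In HOXA, a region inside HOXA10 (chr7:27172904-27173960) was called in 8 libraries with DMSO and 4 with Lgk974 (exact permutation p = 0.143). At 24 h the HOXA10 region was called with DMSO in 4 of 4 libraries and with Lgk974 in 1 of 4, and at 48 h in every library. The region 20324 bp from HOXA13 was called in 1 and 2 libraries. In HOXB, regions 5951 bp from HOXB1 and inside HOXB3 (chr17:48555278-48555689) were called in 4 and 5 and in 5 and 5 libraries. Those 9933 and 28759 bp from HOXB13 were called in 6 and 3 and in 3 and 0.

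In HOXC, the region of largest negative difference lay 697 bp from HOXC9 (chr12:54004034-54004388) and was called in 7 libraries with DMSO and 3 with Lgk974 (exact permutation p = 0.0918). A region inside HOXC11 and HOTAIR (chr12:53974566-53974920) was called in 4 and 6 (exact p = 0.257), and the start of HOXC9 (chr12:54000306-54000683) in 1 and 3 (exact p = 0.173). Without the 3 libraries that stood apart the HOXC9 start was called in 0 and 3 (exact permutation p = 0.0333, adjusted p = 1.00). Inside HOXC4, chr12:54043945-54044261 was called in 1 DMSO and 2 Lgk974 libraries, all of 48 h. The regions 40108 and 3704 bp from HOXC13 were called in 6 and 4 and in 7 and 5 libraries. HOXC thus held 16 tested regions, the most of any cluster, and over all libraries 0 at an unadjusted p under 0.05, with 8 differences above and 8 below 0.

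In HOXD, a region 689 bp from HOXD9 (chr2:176125626-176126082) was called in 4 DMSO libraries, replicates 1 and 2 of either time, and 0 Lgk974 libraries (exact permutation p = 0.0918). The start of HOXD1 (chr2:176188059-176189545, 1487 bp), over HAGLR and MIR7704, was called in 1 DMSO and 2 Lgk974 libraries, which were DMSO 24 h replicate 3, Lgk974 24 h replicate 4 and Lgk974 48 h replicate 2. Within the noncoding gene HAGLR, regions 1144 and 5051 bp from HOXD3 were called in 6 DMSO and 6 Lgk974 and in 6 and 4 libraries, and the region 1020 bp from HOXD1 in 2 and 1. The HOXD1 start and the HAGLR regions had an exact permutation p from 0.459 to 1.00.

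Each gene was also tested as a unit against all protein-coding genes. A gene counted as called if a peak overlapped its RefSeq window (250 bases before to 50 after the start) or, for genes that were not in that table (19 of the HOX genes), lay within 1 kb of either gene end. On this mixed measure 7 of 39 HOX genes were called in all 15 libraries, where 50.8% of 19970 genes were, and 17 in 0, where 25.3% were. These counts depend on the window. HOXA2 and HOXA11, in 0 by RefSeq windows, were called in 12 and 14 libraries within 1 kb of either gene end. HOXA3, in 15 by RefSeq windows, was called in 1 within 1 kb of either gene end. As with regions, a gene could pass the adjusted threshold only if several others had a p as small. Of the 6 HOX genes tested, 0 passed an adjusted p of 0.05 over 1778 genes (exact permutation test, smallest adjusted p over all genes 0.726), and 1 had an unadjusted p under 0.05, with fewer calls with Lgk974. That count was 0 with the replicate block and 0 without the 3 libraries that stood apart. It stayed at 1 with equal lists, a −log10 q of at least 5, windows around summits and 1 kb ends for every gene. With each library left out in turn it was also 1. With 3 kb gene ends for every gene, 0 HOX genes were below 0.05 with fewer calls and 1, HOXD8, with more. At the same threshold 1.86% of tested genes were called less often and 1.07% more often with Lgk974 (2.92% together). HOXB4, HOXC8, HOXC9, HOXD1 and HOXD9 were called in 6 DMSO and 5 Lgk974, 4 and 3, 7 and 4, 1 and 2, and 5 and 1 libraries, with exact permutation p from 0.133 at HOXD9 to 0.990 at HOXC8.

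Genes that act with or upon HOX genes were read on the same measure, from a list of 49. Called in all 15 libraries were 28 of 49, where 50.8% of all genes were, and in 13 or 14 libraries 7. A further 3 were tested, of which 0 had an unadjusted p under 0.05. Among the TALE homeobox cofactors, which bind DNA together with HOX proteins, PBX4, MEIS1 and PKNOX1 were called in 15 libraries and PBX2 in 14. By their RefSeq windows MEIS2 was called in 1, and PBX3 and MEIS3 in 0. Within 1 kb of either gene end MEIS2 and PBX3 were called in 15 and MEIS3 in 1. PKNOX2 was called in 7 libraries with DMSO and 5 with Lgk974 (exact permutation p = 0.571). Of 12 activators of HOX transcription 8 were called in all 15, including KMT2A, MEN1, RARA, RARB, RARG and CDX2. RARB was read by its RefSeq windows, and within 1 kb of either gene end it was called in 1. The intestinal CDX1, a WNT target, was called in 5 libraries with DMSO and 5 with Lgk974 (exact permutation p = 0.927). Of 17 polycomb genes 9 were called in all 15, including EZH2 and EED, and CBX6 was called in 2 libraries with DMSO and 3 with Lgk974 (exact permutation p = 0.357). All 6 genes of CTCF and cohesin, which fold the clusters into loops, were called in 15. PDX1, the pancreatic gene of the related ParaHox cluster, was called in 15, and the HOX neighbours EVX1 and EVX2 in 0 by their RefSeq windows. A member region that overlaps EVX1, chr7:27245616-27246375, was called in 14, and one that overlaps EVX2, chr2:176080513-176081058, in 2.

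Across libraries, the number of HOX regions called followed no treatment order. HOXA counts at 24 h were 28, 25, 33 and 23 regions in DMSO replicates 1 to 4 (27.25 ± 4.35, SD, n = 4) and 25, 24, 18 and 24 in Lgk974 replicates 1 to 4 (22.75 ± 3.202, SD, n = 4). At 48 h they were 22, 26, 22 and 24 with DMSO (23.5 ± 1.92, SD, n = 4) and 25, 30 and 16 with Lgk974 (23.7 ± 7.10, SD, n = 3). The groups overlapped at both times. HOXB counts at 24 h were 23, 25, 23 and 17 with DMSO and 21, 20, 14 and 22 with Lgk974. At 48 h they were 20, 25, 15 and 19 with DMSO and 19, 26 and 10 with Lgk974. In HOXB, too, the groups overlapped at both times, and the lowest Lgk974 count at each time belonged to replicate 3, a library with a short list.

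HOXC counts at 24 h were 22, 25, 24 and 16 with DMSO and 22, 22, 13 and 23 with Lgk974. At 48 h they were 21, 23, 16 and 20 with DMSO and 25, 30 and 11 with Lgk974. HOXD counts at 24 h were 7, 9, 16 and 3 with DMSO and 5, 6, 2 and 14 with Lgk974, and at 48 h 6, 9, 6 and 6 with DMSO and 9, 13 and 3 with Lgk974. The groups overlapped in both clusters at both times. HOXD counts spread most for their size, with DMSO 24 h replicate 3 and Lgk974 24 h replicate 4 highest at 24 h.

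**Figure D5:**
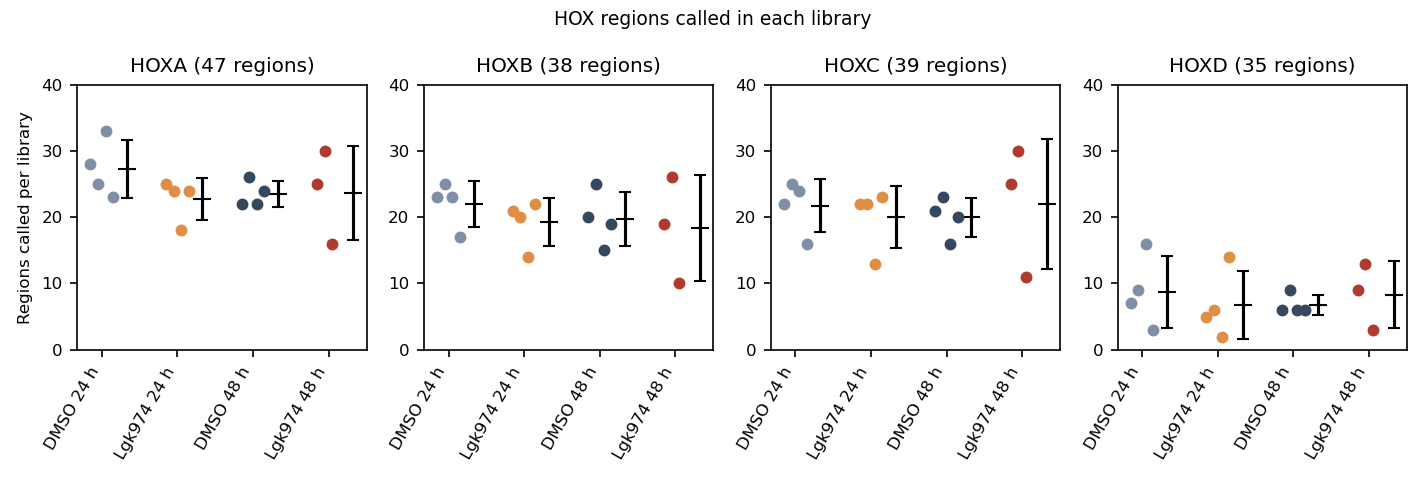
Points are the number of regions called per library in each HOX cluster, and the black bars beside them are the mean ± SD of each group (n = 4, and n = 3 for Lgk974 48 h). DMSO and Lgk974 ranges overlap in every cluster at both times, as in HOXA at 24 h with 23 to 33 and 18 to 25.

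Since long lists call more of everything, each library's calls were also set against its own calling rate over all regions of the genome called in equally many libraries. The mean surplus over a cluster is its detection excess, in percentage points, given here with no test. In HOXA it was 0.795 ± 4.26 over the 8 DMSO libraries and -0.908 ± 2.07 over the 7 Lgk974 libraries (mean ± SD), a difference within times of -1.75. In HOXB it was 1.23 ± 4.305 and -1.41 ± 5.05, a difference of -3.01. In HOXC it was -1.01 ± 3.99 and 1.15 ± 3.95, a difference of 2.29, and in HOXD -1.71 ± 3.35 and 1.95 ± 7.84, a difference of 3.69. Each difference was smaller than the larger SD of its groups. The HOXD difference fell to 0.311 without Lgk974 24 h replicate 4, whose excess was 17.6. With equal numbers of peaks the differences were -6.40 in HOXA, 4.55 in HOXB, -0.7305 in HOXC and -5.465 in HOXD, the HOXB, HOXC and HOXD values opposite in sign to those with all peaks.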

How the data were processed

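ATAC-seq peaks were deposited as 1 list for each library, without pooling, in hg38 coordinates. Per the submitters' processing notes, MACS2 was among the peak tools and Bowtie2, Trimmomatic, SAMtools, Picard and bedtools among the read tools, with DiffBind, DESeq2, ChIPseeker and HOMER also named. Versions, order, settings, any shift of reads for the transposase and what cleaning removed from the lists: not given in the sources used here. These choices decide whether a weak peak is listed and where its edges lie. The authors deposited for each peak a score (10 times the −log10 q, rounded down), a fold ratio over background, −log10 p and −log10 q values, and another column with the summit position. Each deposited list began at a −log10 q between 2.06 and 2.49. The peak values were used only to rank or filter peaks within a list. No read counts were used, so depth is unknown.

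Peaks on chromosomes 1 to 22 and X were merged with Python 3.11.15, numpy 2.4.6, pandas 2.3.3 and scipy 1.17.1, and the merging was checked against bedtools 2.31.1. A damaged line (1, in DMSO 48 h replicate 4) was taken as chromosome 1. Figures used matplotlib 3.10.9. The exact permutation tests were tested on simulated calls. Gene positions, promoter windows and microRNAs came from RefSeq tables on GRCh38.p14 without exons or, for gene positions, strand. Exons, introns and genome sequence were not used here.

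The members, lists and tests were chosen with earlier results of these data known. Named by rule were all HOX genes and, per cluster and direction, up to 3 tested regions with the largest difference, the 2 widest regions called in all libraries and regions that separated the treatments at a time, with up to 5 tested cofactor or regulator genes. Gene starts within 1 kb were added after the data were seen. Alternatives were equal lists, a −log10 q of at least 5, peaks covering 50% of a region, windows of 250 bp to each side of summits, 4 to 11 libraries, a 10 kb flank, 3 kb gene ends, a replicate block and leaving out libraries. Some genes and the regions nearest to them are not reported here.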

Additional observations from a re-analysis of the deposited data

Results flagged for a closer look

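Of 36 groups of 4 libraries examined for a library far from the others (Dixon's test, which chance passes in about 1 group in 20), 6 had one. In Lgk974 24 h replicate 3, the library with the shortest list, 18 HOXA regions were called where the other libraries of its group had 24 to 25. The same library had 13 HOXC regions, the others 22 to 23, and its peaks covered 2.48% of the HOXB gene span, the others 4.62 to 4.90%. In DMSO 48 h replicate 2, 9 HOXD regions were called where each of the others had 6, and its HOXD detection excess was 2.93 points, the others -1.94 to -1.76. In Lgk974 24 h replicate 4 the HOXD detection excess was 17.6 points, the others -5.37 to -1.74, and 6 HOXD regions were called in that library alone. The part of list length in these values was not tested.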

How the results depend on the processing

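No region and no gene promoter of the genome passed the adjusted threshold under any alternative run, including each library left out in turn (exact permutation test with Benjamini-Hochberg adjustment, 0 calls each). Under the replicate block, with a smallest p of 0.0156, a region could pass only if a large share of those tested reached it. Without the 3 libraries that stood apart, the 111900 regions tested included those called in every library left, which can hold no difference. The 0 calls of these runs show little. With equal lists 1 of 22 tested HOX regions was called more often with Lgk974 at an unadjusted p under 0.05, in place of 2 of 44. Over the genome 2017 of 26355 regions tested with equal lists were called more often and 1805 less often. Without the 3 libraries that stood apart 3 of 89 tested HOX regions were called more often, the HOXC9 start among them. Called less often were 1 without those 3 libraries and 1 to 2 with single libraries left out, in place of 2. Without those 3 libraries 2802 of 111900 tested regions of the genome were higher and 643 lower. With single libraries left out, the lower regions of the genome ran from 681 of 66082 tested (without DMSO 48 h replicate 2) to 1511 of 62344 (without DMSO 24 h replicate 3). Replicate numbers were not taken to pair the libraries, since not every pair correlated above 0.1: the 7 same-numbered pairs ran from -0.0321 to 0.146, with 5 above 0.1 (all 4 of 24 h) and 4 best with their own number. With the replicate block, whose smallest p is 0.0156, 2 of 44 tested HOX regions were higher and 0 lower. Of 60356 tested regions of the genome, 140 were higher and 199 lower.

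Detection excess differences moved with equal lists, to -6.40 in HOXA, 4.55 in HOXB and -5.465 in HOXD, and changed sign in HOXB, HOXC (-0.7305) and HOXD. They also changed sign with 50% cover in HOXC (-0.302) and at a −log10 q of at least 5 in HOXD (-1.35). Left-out libraries gave -2.88 to -1.11 in HOXA, -4.60 to -1.575 in HOXB, 1.08 to 3.96 in HOXC and 0.311 to 4.94 in HOXD.

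Differences in calling share changed sign for 8 of the named regions, none of them with an unadjusted p under 0.05 over all libraries and peaks. With equal lists they were -0.0833 at chr2:176174242, -0.125 at chr2:176188059, 0.208 at chr7:27172904 and -0.125 at chr7:27220415. At a −log10 q of at least 5 they were -0.333 at chr2:176174242, 0.0833 at chr2:176178149 and 0.0417 at chr2:176187226, and with 50% cover -0.167 and 0.333 at the first 2 of these. Without the 3 libraries they were 0.125 at chr2:176178149 and 0.167 at chr12:53950248. With single libraries left out the value ran from -0.250 to 0.0417 at chr2:176187226 (above 0 without DMSO 24 h or DMSO 48 h replicate 2) and from -0.0417 to 0.250 at chr17:48555278 (below 0 without DMSO 48 h replicate 3). The cause was not tested. With no read counts, openness below a library's threshold cannot be seen.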
